A study of Mus musculus with 57 samples.

Results

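Genes that mark the excitatory neurons of the upper cortical layers were followed across 12 groups of mouse prefrontal cortex. The 9 genes are Cux1, Cux2, Pou3f2, Pou3f3, Rorb, Mef2c, Rasgrf2, Lamp5 and Calb1, taken by symbol from a deposited table of 18088 genes, and each matched 1 row. They were taken by name and not by a cut on their values, but with earlier results of these data known. All 9 passed the filter on low values and were tested among 18026 genes.

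The tissue came from C57BL/6J mice that were wild type (WT) or heterozygous for the Shank3 delta C allele (HT). Shank3 is a scaffold protein of excitatory synapses. Pups took up vehicle, lithium or fluoxetine with the milk of their dams for 3 weeks, between P3 and P24, and were examined at P25. Lithium is a mood stabiliser and fluoxetine an inhibitor of serotonin reuptake, and the controls carry vehicle by the same route. Genotype, drug and sex give the 12 groups: 9 of 5 libraries, WT lithium females and HT lithium males of 4 each, and HT vehicle males of 3, in all 56 libraries of whole tissue. The labels do not name litters or dams, so p-values treat mice as independent, and whether replicates are separate animals is not stated beyond their numbers. The cell mixture is not resolved: in bulk tissue, fewer cells of a type and less RNA per cell cannot be told apart.

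Upper-layer neurons, those of layers II to IV, are born last in cortical development and mostly connect cortical areas with each other, whereas deep-layer neurons project mainly to targets below the cortex. Cux1 and Cux2 are homeodomain transcription factors that shape dendrites and spines of upper-layer neurons. Pou3f2 and Pou3f3 (Brn2 and Brn1) are POU-domain factors needed for the production and migration of these neurons, and Rorb is a nuclear receptor best known from layer IV. Mef2c, a MADS-box factor that responds to neuronal activity and limits synapse number, is also made by interneurons and microglia. Rasgrf2 is a calcium-responsive exchange factor for small GTPases, Lamp5 is a membrane protein related to the lysosomal LAMP proteins that also marks a class of interneurons, and Calb1 encodes the calcium buffer calbindin, found in upper-layer neurons and in some interneurons.

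The regulatory sequence of 4 transcription factors among them is shown. These genes moved together between libraries, as did the other members except Cux1. The promoter of Mef2c differs in composition from those of Pou3f2, Pou3f3 and Rorb. Each run is the 250 bases before the RefSeq start site (build GRCm38.p6, written 5′ to 3′ on the gene's strand), and capitals mark CCAAT and TATAAA in either direction.
Pou3f2: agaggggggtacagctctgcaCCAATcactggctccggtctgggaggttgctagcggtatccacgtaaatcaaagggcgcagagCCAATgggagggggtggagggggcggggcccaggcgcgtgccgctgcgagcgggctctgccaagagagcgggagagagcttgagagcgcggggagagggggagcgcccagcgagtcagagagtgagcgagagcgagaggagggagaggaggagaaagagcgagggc
Pou3f3: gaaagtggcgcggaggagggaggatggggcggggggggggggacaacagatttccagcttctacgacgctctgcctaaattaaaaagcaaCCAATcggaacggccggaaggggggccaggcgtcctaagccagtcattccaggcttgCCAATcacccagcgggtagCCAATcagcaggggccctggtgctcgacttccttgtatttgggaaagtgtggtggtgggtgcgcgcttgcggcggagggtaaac
Rorb: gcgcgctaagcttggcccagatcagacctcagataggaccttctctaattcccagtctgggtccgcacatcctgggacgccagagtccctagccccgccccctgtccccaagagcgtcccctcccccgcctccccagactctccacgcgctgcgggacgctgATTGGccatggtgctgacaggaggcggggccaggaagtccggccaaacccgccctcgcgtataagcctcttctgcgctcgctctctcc
Mef2c: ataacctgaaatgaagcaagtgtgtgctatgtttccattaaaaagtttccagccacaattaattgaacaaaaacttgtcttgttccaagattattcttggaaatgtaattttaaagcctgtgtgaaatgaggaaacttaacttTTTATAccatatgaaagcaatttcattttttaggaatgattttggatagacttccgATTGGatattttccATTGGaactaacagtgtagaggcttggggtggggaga
The windows lie at chr4:22488367-22488616 (minus strand), chr1:42695518-42695767 (plus strand), chr19:19111197-19111446 (minus strand) and chr13:83503784-83504033 (plus strand), each just outside the annotated gene of that name. The Pou3f3 window lies inside another annotated gene on the same strand, AC122898.1 (42694925 to 42744791). For Rorb and Mef2c the start site farthest upstream was taken, of 2 and 3 listed. CCAAT, the motif from which Cux1 took its older name CCAAT displacement protein, matched 3 times before Pou3f3, 2 times each before Pou3f2 and Mef2c and 1 time before Rorb. Of the members not shown, Lamp5 had 1 match and Cux1, Cux2 and Rasgrf2 had 0. The motif is no mark of the 4 genes shown. It is common: 33.8% of the 32851 promoter windows of this length hold it. TATAAA matched before Mef2c only among the 8 members in the promoter table, against 12.4% of all windows, and ATCGAT, a CUX motif, matched before none of the 8, against 0.728% of all windows. No motif overlapped another. The G and C content was 33.6% before Mef2c, with 1 CG pair, and 66.8%, 60.8% and 66.0% before Pou3f2, Pou3f3 and Rorb, with 18, 15 and 18 CG pairs, against a median of 52.4% over all windows. A match is a string of letters only, and no binding or methylation was measured here.

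All 9 genes were read in every library, and the least covered, Rorb, had 678 to 1541 reads. Divided by the length of the longest annotated transcript, the level of Mef2c was the highest at 3689 ± 596 normalised counts per kb (SD, n = 56). Lamp5 followed at 2742 ± 538 (SD, n = 56), then Calb1 at 936 ± 169 (SD, n = 56) and Rasgrf2 at 832 ± 114 (SD, n = 56). Lower still were Cux2 at 387 ± 63.3 per kb (SD, n = 56), Pou3f3 at 381 ± 39.7 (SD, n = 56), Cux1 at 193 ± 18.5 (SD, n = 56), Pou3f2 at 192 ± 25.7 (SD, n = 56) and Rorb at 118 ± 19.2 (SD, n = 56). Library ranges separated Lamp5 from Calb1, Rasgrf2 from Cux2 and Pou3f3 from Cux1. The other neighbours in this order overlapped. The ratio of the highest to the lowest library was smallest for Cux1, 1.47, and largest for Calb1, 2.73.

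**Figure D1:**
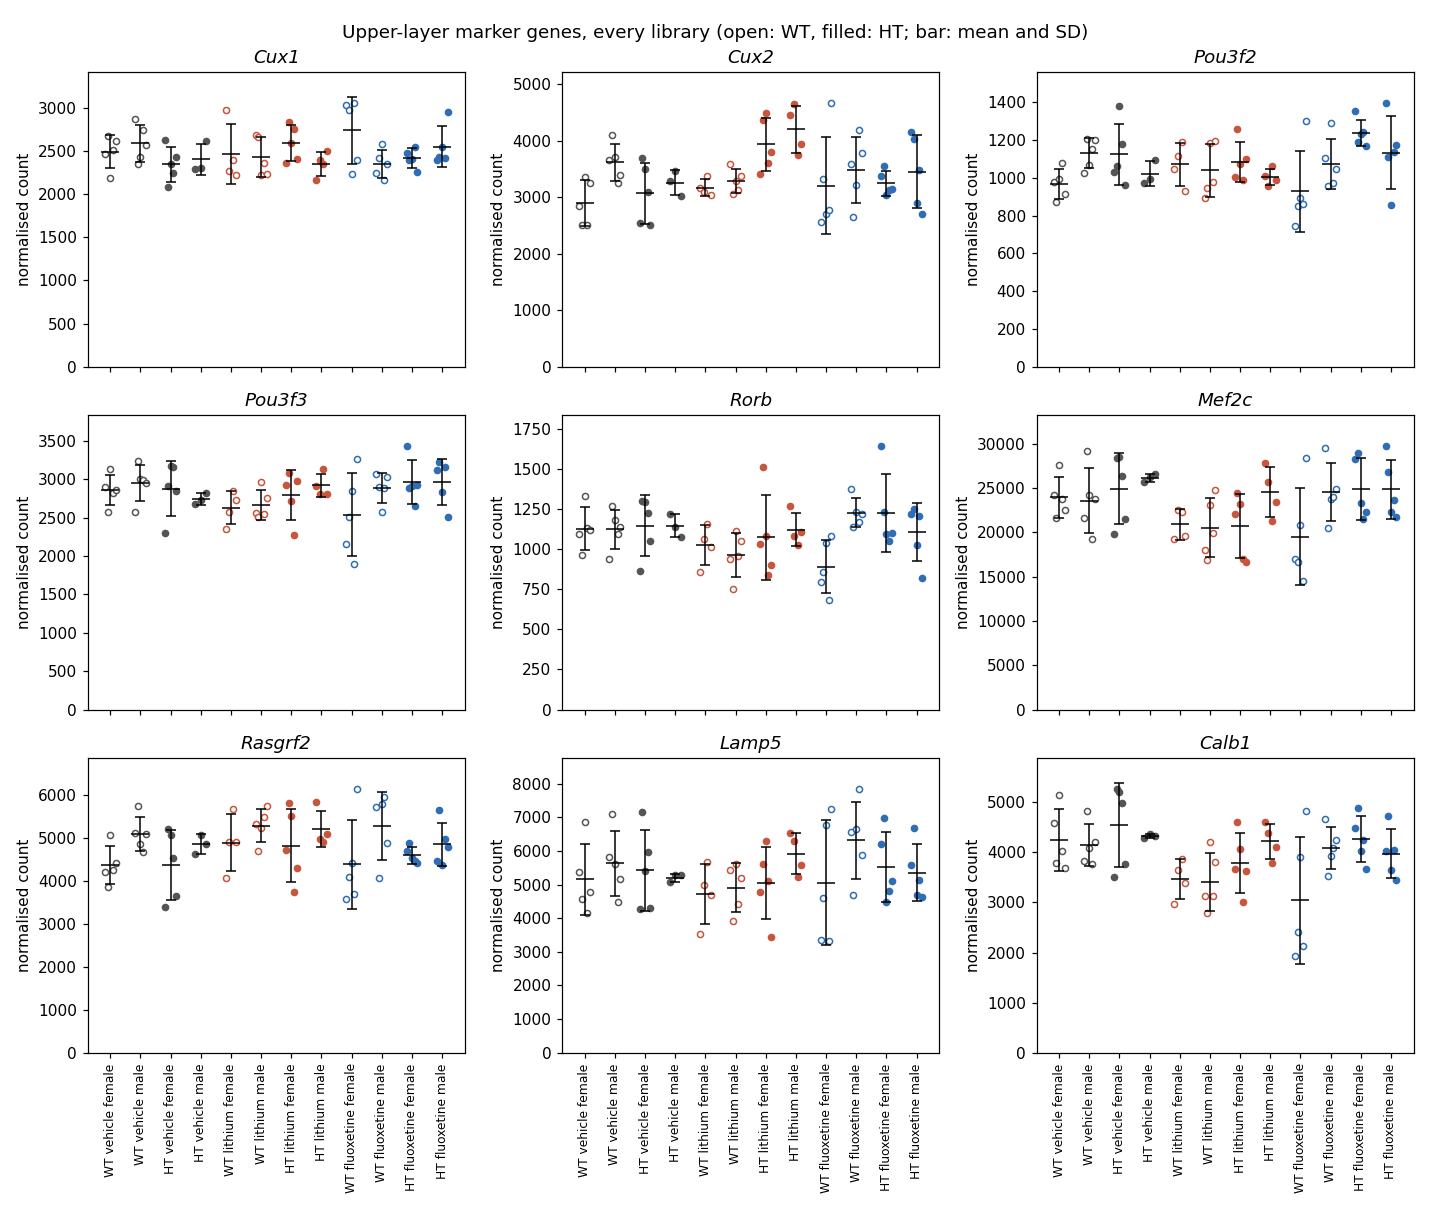
Normalised counts (y axis) of the 9 genes in each of the 56 libraries, by group (x axis); open points are WT and filled points HT, and bars give the mean and SD of the group. HT lithium libraries of both sexes hold the 2 highest group means of Cux2, and 3 of 5 WT fluoxetine female libraries lie below all other libraries for Calb1.

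WT fluoxetine females held the lowest group mean of 5 of the 9 genes, with wide spreads. For Rorb that mean was 891 ± 166 (SD, n = 5), against 1226 ± 90.3 (SD, n = 5) in WT fluoxetine males, the highest. For Mef2c it was 19484 ± 5469 (SD, n = 5), against 26155 ± 468 (SD, n = 3) in HT vehicle males. Pou3f3 went from 2538 ± 542 (SD, n = 5) there to 2971 ± 299 (SD, n = 5) in HT fluoxetine males. Pou3f2 and Calb1 are the other 2 and are given with their libraries in the comparisons of females. Lamp5 ran from 4717 ± 887 (SD, n = 4) in WT lithium females to 6325 ± 1146 (SD, n = 5) in WT fluoxetine males, and Rasgrf2 from 4359.5 ± 442 (SD, n = 5) in WT vehicle females to 5287 ± 387 (SD, n = 5) in WT lithium males. Cux1 was the only member whose highest group mean, 2739 ± 391 (SD, n = 5), was that of WT fluoxetine females. The lowest and highest groups of a gene were picked from 12, so no test is given for them.

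The genes lie on 6 chromosomes (GRCm38). Cux1 is on chromosome 5 from 136248135 to 136567490 on the minus strand, and Cux2 on the same chromosome from 121856366 to 122050102, also minus. Pou3f2 lies on chromosome 4 from 22482780 to 22488366 (minus) and Calb1 on chromosome 4 from 15881264 to 15908064 (plus). Pou3f3 lies on chromosome 1 from 42695768 to 42703176 (plus) and shares its strand with an overlapping transcript, AC122898.1, with a mean of 84.3 normalised counts, so a part of its reads may be assigned to either. Values of a gene join all of its transcripts.

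Libraries of 1 group differed in markers of the olfactory bulb, a region next to the frontal cortex, and the 9 genes varied with them, Cux1 in one direction and the rest in the other. For each of 5 markers (Trh, Th, Cdhr1, Doc2g, Eomes) a library's value was divided by the average of all libraries, and the olfactory level is the average of these 5 ratios. Eomes was listed at 0 in 3 libraries, and the other 4 in none. Summed over the 5 genes, the normalised count ran from 250.5 to 14785 in WT fluoxetine females, from 608 to 10790.2 in HT lithium females, from 360.2 to 7634 in WT vehicle females and from 239 to 827 in HT lithium males. Over all 56 libraries, with group means removed, Pearson's r with the olfactory score (log2 values of the 5 genes, scaled and averaged) was -0.73 for Calb1, -0.70 for Pou3f3, -0.63 for Mef2c, -0.58 for Cux2 and Lamp5, -0.57 for Rorb and Rasgrf2, and -0.27 for Pou3f2. Cux1 went the other way, with r = 0.89. These r values are descriptions and carry no p.

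**Figure D2:**
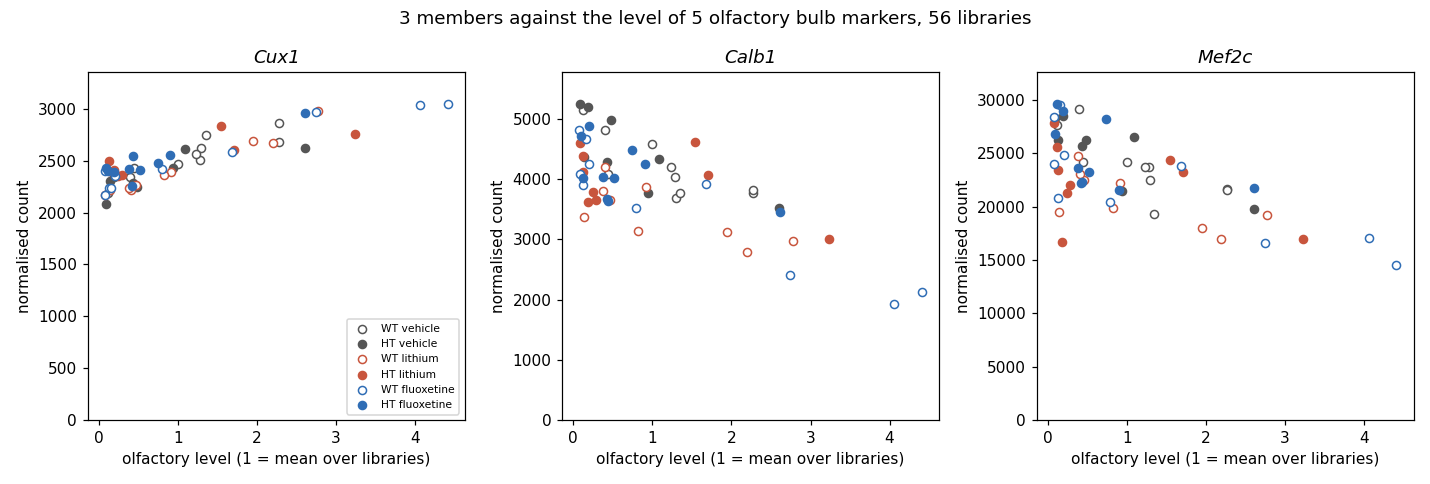
Normalised counts (y axis) of Cux1, Calb1 and Mef2c against the olfactory level (x axis, 1 is the mean over libraries) in 56 libraries, each a point. Cux1 is at or above 2582 in the 14 libraries of highest olfactory level, whereas Calb1 and Mef2c lie mostly lower there.

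In the 14 libraries with the highest olfactory level the median normalised count of Cux1 was 2797, against 2395 in the other 42. Calb1 had a median of 3293 in the former and 4103 in the latter, Mef2c 19538 and 23865, Pou3f3 2513 and 2911, and Rorb 861 and 1125. Cux2 differed less, with medians of 3190.4 and 3384. Cux1 ranged from 2582 to 3052 in the 14 libraries and from 2082 to 2743 in the others, so the ranges overlapped. The part of olfactory tissue in any of these values was not tested.

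Among themselves, 8 of the 9 genes were high and low in the same libraries of a group. With group means removed, all 28 pairs of the genes other than Cux1 had a positive Pearson's r over 56 libraries, with a median of 0.69 and a range of 0.39 to 0.87. The highest was that of Mef2c with Calb1 (0.87). The 8 pairs that include Cux1 had r values below 0, with a median of -0.58. With the olfactory score removed as well, the median was 0.56 over the 28 pairs (0.21 to 0.76) and -0.07 over the 8 pairs with Cux1 (-0.18 to 0.34), where 3 of the 8 were above 0. All 28 pairs without Cux1 were positive after this step too. The same r between pairs of other genes is not given here, so this is not shown to be particular to these genes.

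**Figure D3:**
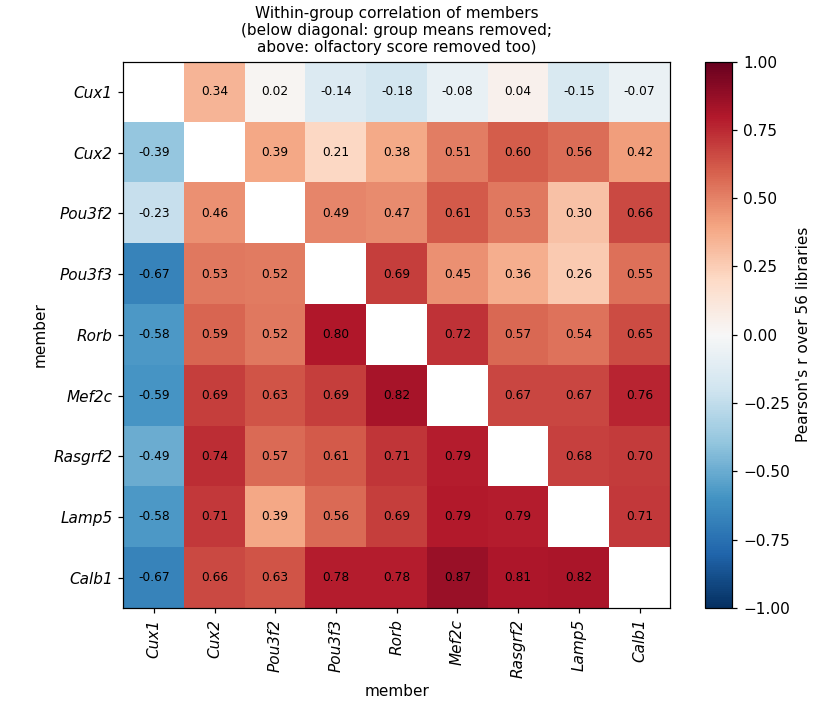
Pearson's r between each pair of the 9 genes (both axes) over 56 libraries, with group means removed below the diagonal and the olfactory score removed too above it; colour gives r. All squares of the 8 genes other than Cux1 are positive on both sides, and the first column, for Cux1, is negative.

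Among the genes most like each one, by the same r, were Fbn2 (0.94), Meis2 (0.93) and Dlx1 (0.93) for Cux1. For Cux2 they were Hkdc1 (0.84), Pdyn (0.80) and C77080 (0.78), for Calb1 Camk2n1 (0.93) and Cacng3 (0.92), and for Mef2c St6gal2 (0.94), Opcml (0.93) and Lrrc8b (0.93). Rorb had Camk2n1 (0.87), Rassf3 (0.83) and Dbpht2 (0.83), Lamp5 had Nrn1 (0.90), Car10 (0.90) and Rgs8 (0.89), and Rasgrf2 had Megf9 (0.85) and Rgs8 (0.84). Pou3f3 had Map3k5 (0.87), Otud1 (0.86) and Fam81a (0.86), and Pou3f2 had Dek (0.76), Cacna2d1 (0.69) and Herc6 (0.68). These are among the largest r of all genes tested, and nothing was tested on them. Within a group the SD of log2 values was lowest for Cux1, 0.13, and highest for Lamp5, 0.29, against a median of 0.19 over all tested genes.

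2 libraries stood apart before any comparison. HT vehicle female replicate 1 had choroid plexus markers at 23.9 times their mean, and HT lithium female replicate 5 stood out in mitochondrially encoded genes. Slc17a7, the vesicular glutamate transporter of cortical excitatory neurons, ranged from 28646 to 61297 normalised counts over all libraries, and Camk2a from 52350.3 to 119461, so the defining markers of excitatory neurons were present throughout.

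Between the genotypes under vehicle, the comparison that shows the allele without a drug, none of the 9 genes passed the test. The log2 differences of HT minus WT, with the sexes averaged, lay between -0.10 and 0.10, and 0 of the 9 were called by limma-trend at an adjusted p below 0.05 (Benjamini-Hochberg over all tested genes), 0 at an unadjusted p below 0.05 and 0 by edgeR. Of all tested genes, 0% were called. The 95% intervals of the 9 differences ran at most from -0.29 to 0.31. The largest difference by size was that of Mef2c, 0.10 ± 0.10 (SE), adjusted p = 0.849 by limma. In HT vehicle females Mef2c was 19826, 21498, 26302, 28325 and 28543, and in WT vehicle females 21656, 22491, 23749, 24178 and 27634, so the groups overlapped.

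In HT mice Cux2 rose with lithium, and it was the 1 gene of the 9 that passed the test in any comparison with the sexes averaged. A count of 1 in 9 is near the share of all tested genes called for lithium in HT, 9.77%. In HT lithium females the normalised count was 3417, 3604, 3812, 4371 and 4489, and in HT lithium males 3753, 3952, 4455 and 4652. In HT vehicle females it was 2507, 2545, 3093, 3503 and 3702, and in HT vehicle males 3029, 3286 and 3464. Among males all 4 lithium values lay above all 3 vehicle values, whereas among females the groups overlapped. The share of all tested genes that separate so in groups this small is not given here. The log2 difference of lithium minus vehicle in HT was 0.37 ± 0.10 (SE), a fold of 1.29, adjusted p = 0.0114 by limma, and 1 of the 9 genes was called against 9.77% of all tested genes. Females averaged 3939 ± 471 normalised counts (SD, n = 5) with lithium and 3070.0 ± 543 (SD, n = 5) with vehicle, and males 4203 ± 420.2 (SD, n = 4) with lithium and 3259.6 ± 218.5 (SD, n = 3) with vehicle.

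In WT mice no difference in Cux2 with lithium was detected. WT lithium females had 3049, 3091, 3168 and 3382, and WT lithium males 3059, 3122, 3287, 3379 and 3589. WT vehicle females had 2503, 2509.8, 2853, 3262 and 3357, and WT vehicle males 3246, 3390.2, 3667, 3719.6 and 4096. The WT difference, with the sexes averaged, was 0.00 ± 0.09 (SE), with a 95% interval of -0.18 to 0.18 and adjusted p = 0.996 by limma. The sexes went opposite ways in this average. Females averaged 3172 ± 148 (SD, n = 4) with lithium and 2897 ± 404 (SD, n = 5) with vehicle. Males averaged 3287 ± 211 (SD, n = 5) and 3624 ± 329 (SD, n = 5). For males minus females in that response, 0 of the 9 genes had an unadjusted p below 0.05 by limma. The difference between the genotypes in the lithium response, 0.37 ± 0.13 (SE, 95% interval 0.10 to 0.63), had adjusted p = 0.381 by limma, so it was not past the test, and 0 of the 9 genes were (1 at an unadjusted p below 0.05, 0 by edgeR), against 0.0166% of all tested genes. Both lithium contrasts use the vehicle groups of their own genotype.

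Cux2 in HT lithium libraries lay above Cux2 in every WT lithium library of the same sex, females and males alike. The nearest values, HT and WT, were 3417 and 3382 in females and 3753 and 3589 in males. How many of all tested genes separate in this way is not given here. The log2 difference of HT minus WT under lithium was 0.33 ± 0.09 (SE), adjusted p = 0.247 by limma, and 0 of the 9 genes were called (1 at an unadjusted p below 0.05, 0 by edgeR). Of all tested genes 0% were called in that comparison, and without the 14 libraries of highest olfactory level 828 genes and 0 of the 9. The other 8 genes had log2 differences from -0.03 to 0.22, the latter that of Calb1 at 0.22 ± 0.11 (SE), adjusted p = 0.528 by limma.

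Transcript composition and olfactory markers were measured beside the Cux2 call in HT mice. Of the 9 genes Cux2 has the most G and C in its longest transcript (55.5%), and the slope of log2 values with transcript G and C content, per 10 percentage points, was 0.05 ± 0.13 (SD, n = 5) in lithium females, 0.06 ± 0.07 (SD, n = 4) in lithium males, -0.04 ± 0.05 (SD, n = 5) in vehicle females and -0.07 ± 0.08 (SD, n = 3) in vehicle males. With that trend and the one with length removed from each library, the difference was 0.21, adjusted p = 0.321 by limma. With group means removed, Pearson's r of Cux2 with the slope was 0.04 over 56 libraries. The r values of the 9 genes ran from -0.42 for Pou3f2 to 0.09 for Pou3f3. HT lithium female replicate 5, which stood apart in mitochondrially encoded genes, had a slope of 0.25. The part of composition in the call was not tested. The olfactory level of HT mice averaged 1.39 ± 1.24 (SD, n = 5) for lithium females, 0.14 ± 0.07 (SD, n = 4) for lithium males, 0.86 ± 1.03 (SD, n = 5) for vehicle females and 0.55 ± 0.49 (SD, n = 3) for vehicle males. With the olfactory score as a covariate the difference was 0.34, adjusted p = 0.0023, and without the 14 libraries of highest level, which leaves 2 HT lithium females, it was 0.28, adjusted p = 0.0755, both by limma. Leaving out each of the 17 libraries of the comparison in turn gave 0.33 to 0.40 with the call in every case.

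The other 8 genes in HT mice had log2 differences of lithium minus vehicle from -0.19 to 0.12. Mef2c was at -0.19 ± 0.11 (SE), adjusted p = 0.294, Calb1 at -0.15 ± 0.12 (SE), adjusted p = 0.494, and Rasgrf2 at 0.12 ± 0.09 (SE), adjusted p = 0.462, all by limma. In WT mice 0 of the 9 passed limma or edgeR for lithium (2 at an unadjusted p below 0.05), against 11.7% of all tested genes. Calb1 was lowest there, at -0.29 ± 0.11 (SE), adjusted p = 0.081 by limma. Its WT lithium females had 2968, 3381, 3650.3 and 3877, and its WT lithium males 2791, 3127, 3138, 3812 and 4211. WT vehicle females had 3681, 3780.2, 4034, 4579.6 and 5156, and WT vehicle males 3770.4, 3825, 4088, 4203 and 4825. The groups overlapped in both sexes. With the olfactory score as a covariate Calb1 was at -0.31, adjusted p = 0.0028, and without WT lithium male replicate 3 at -0.33, adjusted p = 0.0451, both by limma.

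**Figure D4:**
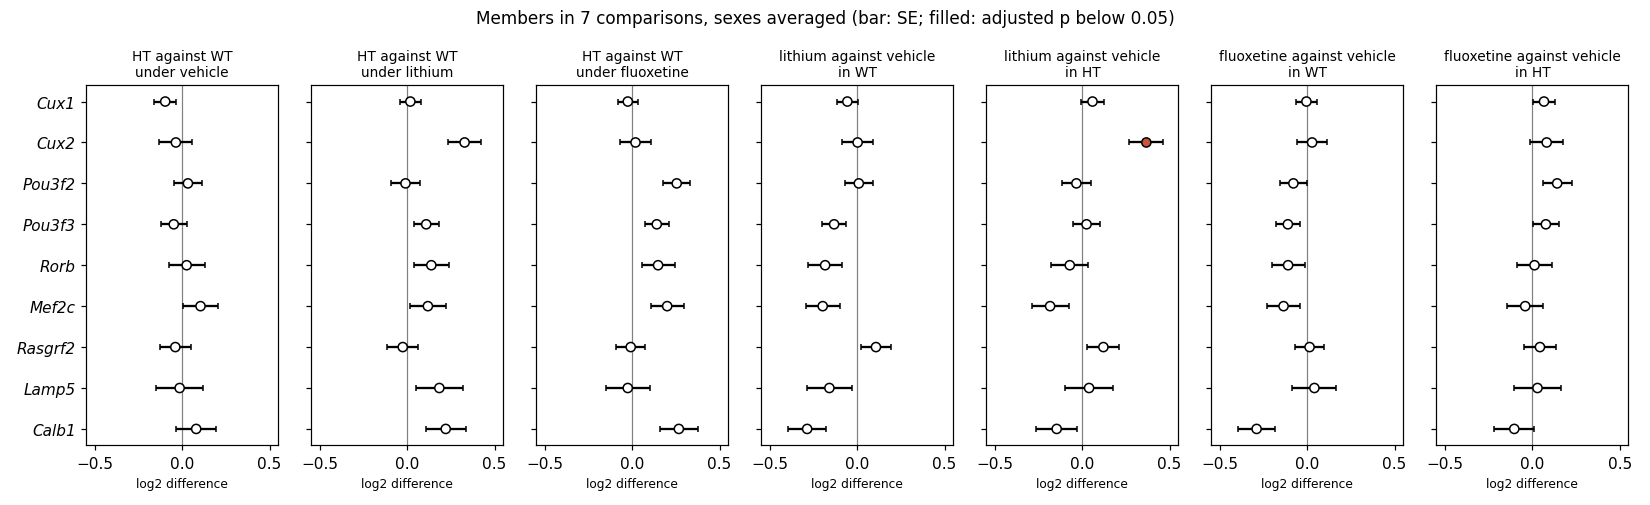
Log2 differences (x axis, with SE) of the 9 genes (y axis) in 7 comparisons, sexes averaged; the filled point passed an adjusted p below 0.05. Cux2 for lithium against vehicle in HT, at 0.37, is the only filled point, and Calb1 lies at -0.29 for lithium and for fluoxetine in WT.

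A wider list of upper-layer genes and 3 other lists were read beside the 9. Of these lists, that of general excitatory neuron genes is not reported here for lithium. In HT mice given lithium, 2 of 20 further upper-layer genes rose and 0 fell, a share near the 9.77% of all tested genes: Wfs1, an endoplasmic reticulum protein that is also in the list of hippocampus markers, by 0.48 ± 0.10 (SE), adjusted p = 0.0018, and Stard8, a GTPase-activating protein, by 0.35 ± 0.07 (SE), adjusted p = 0.0011, both by limma. In WT mice 3 of 20 were called, beside 11.7% of all tested genes: Stard8 at 0.34 ± 0.07 (SE), adjusted p = 4e-04, and Wfs1 at 0.30 ± 0.10 (SE), adjusted p = 0.0362, rose, and Nectin3, a cell adhesion protein, fell by 0.58, at -0.58 ± 0.10 (SE), adjusted p = 2e-04, by limma. Their median log2 difference was 0.11 in HT and 0.04 in WT, against 0.00 over all tested genes in both. Of 18 deep-layer genes 0 were called in either genotype by limma, with 2 at an unadjusted p below 0.05 in HT and 0 in WT. Among 11 relatives of the 9 genes Mef2d, a second MADS-box factor of the Mef2c family, rose by 0.19 ± 0.06 (SE), adjusted p = 0.0201 in HT and by 0.19 ± 0.05 (SE), adjusted p = 0.0106 in WT, and Mef2a fell by 0.17 in HT, adjusted p = 0.0457, all by limma.

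With fluoxetine none of the 9 genes passed the test with the sexes averaged. In WT 0 of the 9 were called by limma and 0 by edgeR (1 at an unadjusted p below 0.05), against 5.18% of all tested genes, and in HT 0 of the 9 by either tool (0 at an unadjusted p below 0.05), against 0%. In HT the log2 differences ran from -0.10 to 0.14, with 95% intervals from -0.34 to 0.31 at most. In WT Calb1 was at -0.29 ± 0.11 (SE), adjusted p = 0.102 by limma. The difference between the genotypes in the fluoxetine response called 0 of the 9 (0 at an unadjusted p below 0.05, 0 by edgeR), against 0% of all tested genes, and ran from -0.01 to 0.22. Of the 20 further upper-layer genes Stard8 rose in WT by 0.28 ± 0.06 (SE), adjusted p = 0.0057 by limma. HT minus WT under fluoxetine called 0 of the 9 by limma and 0 by edgeR (4 at an unadjusted p below 0.05), against 0% of all tested genes, with Calb1 at 0.27 ± 0.11 (SE), adjusted p = 0.369, and Pou3f2 at 0.25 ± 0.08 (SE), adjusted p = 0.226, by limma.

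Within females the WT fluoxetine libraries stood out for Calb1. They had 1929.5, 2134, 2417, 3899 and 4826 normalised counts. The first 3 are replicates 1, 4 and 2, at olfactory levels of 4.06, 4.41 and 2.74, and the other 2, replicates 3 and 5, were at 0.13 and 0.08. In the same order Cux1 was 3036, 3052, 2974, 2234 and 2400.0, so the 3 libraries lowest in Calb1 were the highest of their group in Cux1. Markers of other cells moved too. In that order the level of 8 general excitatory neuron genes, relative to the mean of all libraries, was 0.68, 0.61, 0.81, 1.08 and 1.24, and that of interneuron genes 1.48, 1.47, 1.23, 0.92 and 0.87. The interneuron level is an average that takes in Calb2, which ranged from 261 to 6590 normalised counts over all libraries. Its genes are not given singly here. The part of these markers in the Calb1 difference was not tested. The log2 difference from WT vehicle females was -0.56 ± 0.15 (SE), adjusted p = 0.0103 by limma. Of the 9 genes 1 was called, near the share of all tested genes, 12.1% (2189 genes, and 12 with the compared groups only). The call ended without replicate 1, 2 or 4 of the WT fluoxetine females (-0.42, -0.51 and -0.46), and without the 14 libraries of highest olfactory level, which leaves 2 of these 5, the difference was 0.00, adjusted p = 0.992 by limma. With the olfactory score, which is on a log2 scale and had the same slope in all groups, as a covariate it was -0.57, adjusted p = 1e-04 by limma. The covariate and the leaving out of libraries gave unlike values, and the part of olfactory tissue in the Calb1 difference was not tested. Males minus females, the difference in that response was 0.55 ± 0.21 (SE), adjusted p = 0.0996 by limma, 0 of the 9 genes called (4 at an unadjusted p below 0.05), against 7.74% of all tested genes.

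Against those WT females, HT fluoxetine females were higher in Calb1 and Pou3f2. HT fluoxetine females had 3679, 4026, 4250.2, 4489 and 4884 for Calb1. For Pou3f2 they had 1169, 1191, 1230.3, 1245 and 1353, and the WT females 745, 850.5, 859, 892 and 1299. All but 1 of the WT values of Pou3f2 lay below every HT value. The log2 differences of HT minus WT were 0.58 ± 0.15 (SE), adjusted p = 0.0356 for Calb1 and 0.44 ± 0.11 (SE), adjusted p = 0.0297 for Pou3f2 by limma, with Rorb at 0.46 ± 0.13 (SE), adjusted p = 0.0504. That is 2 of the 9 genes, against 2.56% of all tested genes, which are 461 genes. That number was 1 with the compared groups only, 8 with the G and C and length correction, 0 without the 14 libraries of highest olfactory level and 1663 with the olfactory score as a covariate. Without the 14 libraries the values were -0.03 for Calb1 and 0.20 for Pou3f2. Both calls also ended without replicate 1, 2 or 3 of the HT fluoxetine females and without replicate 1, 2 or 4 of the WT ones. Males minus females, the differences were -0.62 ± 0.21 (SE), adjusted p = 0.151 for Calb1 and -0.37 ± 0.15 (SE), adjusted p = 0.213 for Pou3f2 by limma, 0 of the 9 genes called (4 at an unadjusted p below 0.05), against 0.155% of all tested genes.

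Lithium in HT females gave Cux2 a log2 difference of 0.37 ± 0.12 (SE), adjusted p = 0.0459 by limma. That is 1 of the 9 genes, near the share of all tested genes, 10.5%. HT males had 0.36 ± 0.15 (SE), adjusted p = 0.349 by limma. Their difference, males minus females, was -0.01 ± 0.19 (SE), adjusted p = 0.997 by limma, with 0 of the 9 called (0 at an unadjusted p below 0.05), against 0.172% of all tested genes. In females alone the call ended under limma without the trend (adjusted p = 0.0553), with the replicate number as a block (0.053) and with edgeR (0.0574), all at a difference of 0.35 to 0.37. It ended too with the compared groups only (0.136), with the G and C and length correction (a difference of 0.14), without the 2 libraries that stood apart (0.32) and without the 14 libraries of highest olfactory level (0.19). Leaving out single libraries ended it for replicate 2, 3 or 5 of the HT lithium females or replicate 1, 4 or 5 of the HT vehicle females, at 0.30 to 0.38.

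Males and females differed in none of the 9 genes by limma when all groups were averaged (0 called, 2 at an unadjusted p below 0.05, 0 by edgeR), against 0.283% of all tested genes. Rasgrf2 was highest, at 0.17 ± 0.05 (SE), adjusted p = 0.134, and Cux2 was at 0.13 ± 0.05 (SE), adjusted p = 0.282 by limma. In all, 8 of the 9 differences of males minus females were above 0. So were those of all 8 general excitatory neuron genes (Camk2a 0.18, Slc30a3 0.18, Gria2 0.13), whereas all 5 olfactory bulb markers lay below 0, from -0.88 to -0.61, with 0 of these 13 genes called by limma. Their part in the differences of the 9 genes was not tested. Without WT fluoxetine female replicate 5 Rasgrf2 was at 0.19, adjusted p = 0.0381 by limma.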

How the data were processed

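Poly(A) RNA of 56 libraries was sequenced strand-specifically, per the labels' protocols. Values in the deposited table are a signal: gene counts that the authors divided by 1 size factor per library. The submitters' processing notes name Salmon 0.11.2, R 3.6.0, DESeq2 1.19.11 and GRCm38, without role or order. Of 59 columns, 3 matched no sample and were not used, and 1 labelled sample, a WT lithium female, was not analysed here. Whole reads were recovered (100% of values within 1e-06 of a whole number), 22984556 to 35969254 in a library, and these totals set the counting error. No libraries of a group agreed within sampling noise (105 pairs, smallest chi-square per degree of freedom 4.94).

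Values entered as log2(value + 1), so differences of low genes are understated. The filter kept genes reaching a value of 10 in 3 or more libraries. All 12 groups shared 1 limma-trend fit (limma 3.58.1, R 4.3.3, 44 residual degrees of freedom), checked on simulated data. Calls are two-sided, with p adjusted by Benjamini-Hochberg over 18026 genes and a threshold of 0.05. The sexes were averaged in 10 comparisons and taken alone in 14, of which 3 held a member called, and 7 contrasts asked whether the sexes differ. edgeR 4.0.16 on the recovered reads was an alternative: it called 2168 genes for lithium in WT, 1802 for lithium in HT and 922 for fluoxetine in WT. The other alternatives and each library left out are in the closing section. Annotation was GENCODE M21, promoters RefSeq (8 of the 9 genes matched). The members, lists and alternatives were chosen with earlier results of these data known. All 9 members were named, from other lists up to 4 called genes by smallest p, and the 3 genes of highest r for each member, of which some are not reported here.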

Additional observations from a re-analysis of the deposited data

Results flagged for a closer look

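Over 99 combinations of gene and group of 4 or 5 libraries, 2 held a library farther from the rest than Dixon's critical value allows, where chance alone flags about 1 in 20. Cux1 in HT fluoxetine male replicate 5 was 2958 normalised counts, against 2545 in the next library of that group, and this library also had the highest olfactory level of the group, 2.61. Pou3f2 in WT fluoxetine female replicate 5 was 1299, against 892 in the next, in the library with an olfactory level of 0.08, the lowest of its group. The part of olfactory tissue in either was not tested.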

How the results depend on the processing

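Of 117 values of a gene in a comparison, 95 kept their side of the threshold in every alternative run. The 3 within-female comparisons entered the alternatives after their calls were seen. For lithium in WT the members called numbered 0, and 1 with the compared groups only (Calb1), 3 with the olfactory covariate (Calb1, Mef2c, Pou3f3) and 2 with the G and C and length correction (Cux1 at -0.21, Pou3f3 at -0.23). For lithium in HT it was 1, and 0 with that correction and 0 without the 14 most olfactory libraries. For fluoxetine in WT it was 0, and 2 with the olfactory covariate (Calb1, Pou3f3). In WT females with fluoxetine it was 1, and 0 with the compared groups only, 5 with the olfactory covariate, 0 with the G and C correction and 0 without the 14 libraries, where Calb1 was at 0.0036. For HT against WT under fluoxetine in females it was 2, and 0 with the compared groups only, 1 with edgeR, 4 with the olfactory covariate, 3 with the striatal covariate and 3 without the 2 libraries that stood apart (both with Rorb), 0 with the G and C correction and 0 without the 14 libraries, where Calb1 was at -0.031. For lithium in HT females it was 1, and 0 with the replicate block, under limma without the trend, with edgeR, with the compared groups only, with the G and C correction and without the 2 libraries that stood apart. Without the 14 libraries it was 1, Calb1 in place of Cux2. The cause was not tested. No alternative moved a count of members for HT against WT under vehicle or lithium, fluoxetine in HT or either interaction.

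Leaving out 1 library gave 0 to 1 members for HT against WT under fluoxetine (1, Pou3f2, without WT fluoxetine female replicate 5), 0 to 1 for lithium in WT, 1 to 1 for lithium in HT, 0 to 1 for fluoxetine in WT (1, Calb1, without WT fluoxetine female replicate 3 or 5) and 0 to 1 for males against females. Within females it gave 0 to 4 for fluoxetine in WT, 0 to 6 for HT against WT under fluoxetine and 0 to 1 for lithium in HT. Over all tested genes the other settings called 1512 to 3320 genes for lithium in WT, 418 to 3042 in HT 421 to 3005 for fluoxetine in WT, 0 to 828 for HT against WT under lithium, 0 to 902 for the lithium interaction (3 in the reported fit) and 0 to 84 for HT against WT under fluoxetine. Within females they called 12 to 3753 for fluoxetine in WT, 0 to 1663 for HT against WT under fluoxetine and 248 to 2649 for lithium in HT, so the background moved too.

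The replicate numbers share only a number: 289 same-numbered pairs of different groups had a median correlation of -0.003, 67 of them over 0.1, and 10 of 56 libraries correlated best with their own number. With the replicate block Cux2 for lithium in HT was at 0.37, adjusted p = 0.0132 by limma, and the block changed no call of a member other than Cux2 in HT females. TMM factors moved the median of all genes by less than 0.01 on the log2 scale.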
